A study of Homo sapiens with 2 samples.

Results

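The mature miRNAs of the imprinted region at 14q32 were examined in the human lung adenocarcinoma line A549. Members were all mature miRNAs listed within a window of hg19 chromosome 14 that spans the region. This gave 62 of the 859 mature miRNAs listed, with the first member starting at position 101318745 and the last at 101533102. The small RNAs came from A549 cells grown with 10% FCS for 24 h at 20% oxygen (normoxia) or at 1.2% oxygen (hypoxia). There is 1 library for each oxygen level, so replicate error is unknown, and the effect of oxygen cannot be told apart from a difference between the 2 cultures or libraries. Counts are given as CPM, scaled in each library to the counts on all mature miRNAs, and 95% intervals are exact intervals that cover counting error only, since reads without molecular identifiers are not independent molecules.

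The region is one of the classical imprinted domains of mammals. DLK1, RTL1 and DIO3 are expressed from the paternal chromosome, whereas the noncoding RNAs MEG3, MEG8 and MEG9 and the small RNAs between them are expressed from the maternal chromosome. Its miRNA hairpins and its C/D box snoRNAs, the class of small nucleolar RNA that guides ribose methylation, are thought to be cut from long transcripts of the same strand. These miRNAs are abundant in brain, placenta and embryonic tissue, and those antisense to RTL1 act on the RTL1 transcript. Each mature miRNA recognizes targets mainly through its seed, bases 2 to 8 from the 5′ end.

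Mature sequences of 58 members were found in RefSeq (GRCh38.p14) by matching the sequence of the listed feature. Those of miR-381, miR-412, miR-432-5p and miR-668 are not shown. All lines below run 5′ to 3′ with the seed in capitals, and each interval after a name is the hg19 position of the counted feature, plus strand. The first 3 are the 3p arms of the miR-376 family, which held the most abundant member and, among the members above 8 CPM, the lowest ratios of hypoxia over normoxia.
miR-376c (chr14:101506068-101506090): aACAUAGAggaaauuccacgu
miR-376a-3p (chr14:101506454-101506476): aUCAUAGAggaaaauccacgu
miR-376b (chr14:101506833-101506856): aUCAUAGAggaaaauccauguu
The next 7 are the members with the 5 highest ratios among those above 8 CPM, miR-127-3p as the second most abundant member, and miR-495, the next listed member after miR-543.
miR-543 (chr14:101498369-101498392): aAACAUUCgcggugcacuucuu
miR-654-3p (chr14:101506605-101506628): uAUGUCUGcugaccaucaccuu
miR-410 (chr14:101532297-101532319): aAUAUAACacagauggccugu
miR-299-5p (chr14:101490136-101490159): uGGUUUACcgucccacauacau
miR-409-3p (chr14:101531682-101531705): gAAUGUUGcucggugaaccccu
miR-127-3p (chr14:101349371-101349394): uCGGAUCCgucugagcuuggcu
miR-495 (chr14:101500140-101500163): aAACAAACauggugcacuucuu
The last 4 are pairs of members that share a seed.
miR-154-3p: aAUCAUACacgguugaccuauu
miR-487a: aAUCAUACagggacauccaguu
miR-411-3p: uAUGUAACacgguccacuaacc
miR-379-3p: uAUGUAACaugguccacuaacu

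The 58 sequences were 20 to 25 nucleotides long with a median GC content of 45.5%. Adenine was the first base in 26, uracil in 21, guanine in 6 and cytosine in 5. There were 53 distinct seeds, and 5 seeds were each shared by a pair of members. Besides the pairs shown, these were miR-376a-3p with miR-376b, miR-1185-1-3p with miR-1185-2-3p, and miR-539-3p with miR-485-3p. The seeds of 10 members were also found among the 2286 RefSeq mature miRNAs encoded elsewhere, for example that of miR-329 in miR-362-3p and that of miR-495 in miR-5688. For 37 members the seed was found in no other RefSeq mature miRNA. The edit distance, which counts the single-base edits separating a pair of sequences, had a median of 13 over the 1653 pairs of members. It was 3 or less in 6 pairs, among them miR-376c with miR-376a-3p (2) and miR-376a-3p with miR-376b (2), and it was 4 between miR-543 and miR-495. Counts of members this close may be split by the counting and are uncertain as separate measurements. Some other short stretches, which run into the seed in several members, recurred as well. The letters CACGG occurred in 7 of the 58 sequences (12.1%) and in 0.875% of the RefSeq mature miRNAs encoded elsewhere. The letters GGUCCAC occurred in 4 (6.90%) and in 0.0875% of the others, and GGUUGACC in 3 (miR-380-5p, miR-134 and miR-154-3p) and in 0 of the others. These stretches were searched in the mature strand only and were picked after the sequences had been read.

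The hairpins of the locus lie on the plus strand. The RefSeq table used here holds 49 of them. In GRCh38 with GENCODE 29, 2 of these 49 overlap MEG3 and 4 lie opposite exons of RTL1. Another 13 lie within MEG8, 5 within MIR381HG and 5 within MEG9 on the same strand, 8 within AL117190.1, and 17 in no such gene, with some hairpins in more than 1 of these genes. The same table holds 84 mature miRNAs at the locus. Of these, 26 were not matched to a listed feature, among them miR-136-5p, miR-300 and miR-541-3p. The table holds no feature with under 3 counts over both libraries, so no level is given for these.

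The libraries held 4514818 mature miRNA counts in normoxia and 8600160 in hypoxia, so that 1 count was worth 0.221 and 0.116 CPM. miR-210, a known hypoxia-induced miRNA, was at 954 CPM in normoxia and 2657 CPM in hypoxia. All 6 epithelial markers (the miR-200 family, miR-141 and miR-205) were listed, with summed levels of 1168 and 1362 CPM, mostly from miR-200b-3p (880 and 1085 CPM), while miR-141-3p was at 37.2 and 25.5 CPM. The summed markers of other cells were 239 and 236 CPM for mesenchymal cells (4 of 4 listed), 179 and 190 CPM for the endothelial miR-126-3p, 292 and 388 CPM for neurons (3 of 3 listed, mostly miR-128, with miR-124-3p at 0.664 and 0.698 CPM) and 19.9 and 23.4 CPM for blood, where miR-223-3p and miR-144-3p were not listed. Their part in the levels of the cluster was not tested.

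The cluster was a minor component of the miRNAs of A549 cells and was higher in the hypoxic library. Its 62 members summed to 2167 counts in normoxia, 0.0480% of mature counts (interval 0.0460% to 0.0501%). In hypoxia they summed to 5249 counts, 0.0610% (0.0594% to 0.0627%). In CPM these sums were 480.0 and 610.3, a ratio of 1.27 (interval 1.21 to 1.34). Fewer cells with these miRNAs and less miRNA per cell cannot be told apart in such bulk libraries. The size of the ratio depended on the scaling, which moved its log2 value from 0.35 to between 0.15 and 0.28 with other scalings over mature miRNAs. The most abundant member, miR-376c, ranked 158 of the 859 mature miRNAs by mean CPM and was the only one among the first 200. The median rank of the members was 412.

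The counts were spread unevenly over the members. The 5 most abundant of each library made up 42.2% of the cluster in normoxia and 41.0% in hypoxia, and the 10 most abundant 60.7% and 60.2%. In normoxia 28 members, and in hypoxia 27, were needed to reach 90% of the counts. Levels of the members followed a similar order in both libraries (Spearman's rho 0.94 across 62 members, which share each library and its depth). Every member had at least 1 count in hypoxia, and 4 had none in normoxia. These were miR-299-3p, miR-485-5p, miR-412 and miR-541-5p, with 3, 6, 4 and 4 counts in hypoxia, where a count of 0 allows up to 3 counts in normoxia. No direction can be read for these 4, since the lower limit of the log2 ratio was below 0 for each (-0.69 for miR-485-5p, the highest).

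**Figure D1:**
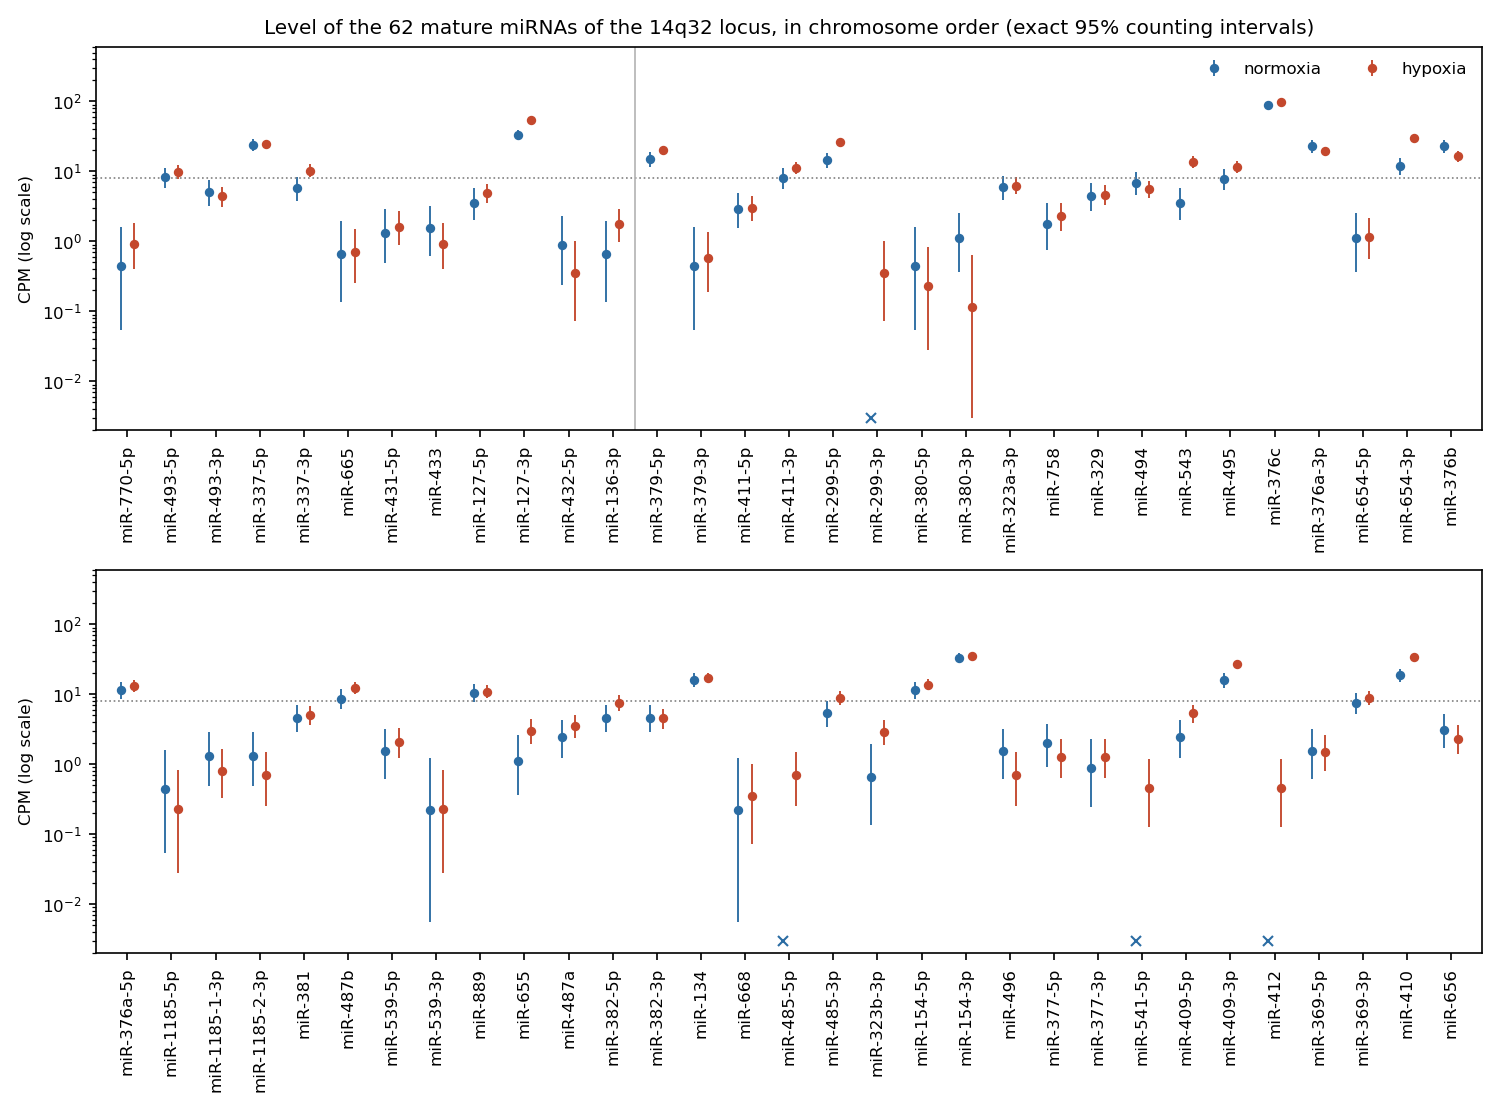
Level of each of the 62 members in CPM on a log axis, in chromosome order from left to right and from the upper to the lower panel, with exact 95% counting intervals. Crosses at the lower edge mark the 4 members with a count of 0 in normoxia, the dotted line is at 8 CPM, and the grey line separates the miR-770 and miR-493 to miR-136 stretches from the miR-379 to miR-656 stretch. miR-376c stands above all other members in both libraries.

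To compare single members, a mean over the libraries above 8 CPM was required. Of the 62 members, 21 passed, as did 338 of all 859 mature miRNAs. Of the 21, 17 lay above 8 CPM in both libraries. The other 4 (miR-543, miR-411-3p, miR-495 and miR-369-3p) did so only in hypoxia and so passed through the library in which they were higher. At the edge of this filter, miR-369-3p was just inside with 34 and 77 counts and miR-337-3p just outside with 26 and 88. The median log2 ratio of hypoxia over normoxia was 0.27 for the 21 members and 0.08 for the 338 miRNAs. The members' median moved with the choices made, to 0.68 over the 9 members of at least 20 CPM (0.06 over all such miRNAs) and to 0.07 with library totals taken without the most abundant miRNAs (-0.12 over the 338). With the reported settings the median was also 0.08 over the 181 miRNAs in the same range of mean CPM as the members. The ratio was above 1 for 19 of the 21 members (90.5%), against 59.5% of the 338 and 57.5% of the 181. These 19 include the 4 members that passed the filter only through hypoxia. Neither this count nor the median was recomputed without them. The count also depended on the scaling. It was 15 of 21 both with TMM factors (where 47.6% of the 338 lay above 1) and with DESeq2 size factors (50.9%), and 13 of 21 with library totals taken without the most abundant miRNAs (40.8%).

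With a log2 ratio of 0.9 or more taken as a threshold of size, 2 of the 21 members were higher in hypoxia (9.52%), where 3.85% of the 338 miRNAs were. These were miR-543 and miR-654-3p. As miR-543 passed the filter only through the hypoxic library, the count was 1 of 17 (5.88%) among members above 8 CPM in both libraries, where 3.47% of the 317 such miRNAs were higher. With a mean of at least 20 CPM it was 1 of 9 (11.1%), where 3.42% of 263 miRNAs were higher. None had a log2 ratio of -0.9 or less, where 3.25% of the 338 did, and 2.52% of the 317 above 8 CPM in both libraries. The scaling changed the split over all miRNAs, with 13 higher and 11 lower here and 9 and 15 with TMM factors, but not these counts of members. A ratio whose counting interval lay wholly above 1 was found for 8 of the 21 members (38.1%) and for 37% of the 338. In the same range of mean CPM the share was 26%. Without miR-543 and miR-495, which passed the filter only through hypoxia, it was 6 of the 17 members above 8 CPM in both libraries (35.3%) and 37.5% of the 317. An interval wholly below 1 was found for 1 member (miR-376b, 4.76%), against 26.6% of the 338 miRNAs and 24.3% of those in the same range, and 26.2% of the 317. The interval calls of miR-379-5p and miR-495 were lost with TMM factors, leaving 6 of 21 above 1 (29.3% of the 338) and 1 below (35.5%). With library totals taken without the most abundant miRNAs, miR-376a-3p joined miR-376b below 1, with 6 above (24.6%) and 2 below (40.2%). No test was made of these differences, since the conditions have 1 library each.

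**Figure D2:**
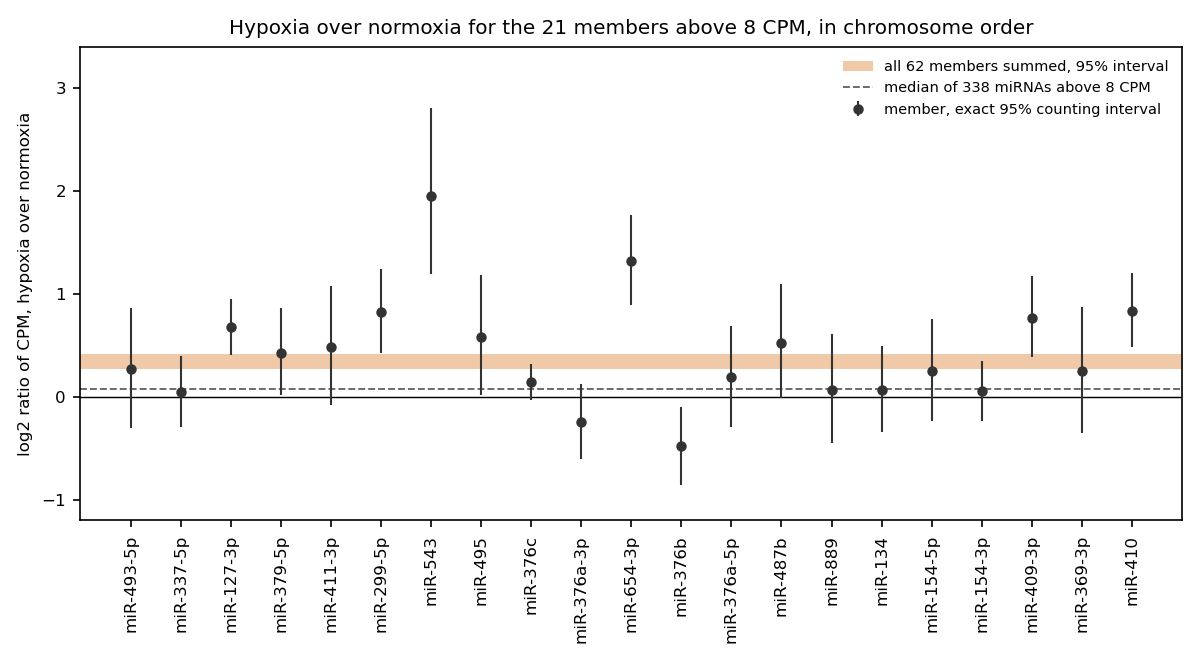
The log2 ratio of CPM, hypoxia over normoxia, for the 21 members with a mean above 8 CPM in chromosome order, with exact 95% counting intervals. The shaded band is the interval of the summed cluster and the dashed line the median of 338 miRNAs above 8 CPM (0.08), and the intervals of miR-543, miR-654-3p, miR-410 and miR-299-5p lie wholly above the band while the points of the miR-376a and miR-376b 3p arms lie below 0.

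miR-543 had the highest ratio of the 21 members above 8 CPM. It had 16 counts in normoxia, 3.54 CPM (interval 2.03 to 5.76), and 118 counts in hypoxia, 13.7 CPM (11.4 to 16.4), a ratio of 3.87 (2.29 to 6.99). The next listed member, miR-495, at an edit distance of 4, was at 7.75 CPM in normoxia and 11.6 CPM in hypoxia, a ratio of 1.50 (1.01 to 2.27). In normoxia there were 0.457 counts of miR-543 for each of miR-495, and in hypoxia 1.18, so that their proportion differed by 2.58 times (1.30 to 5.29), a quantity that the scaling of the libraries does not touch. miR-494, the listed member before miR-543, had 31 and 48 counts, a ratio of 0.81 (0.51 to 1.32), and the proportion of miR-543 to it differed by 4.76 times (2.27 to 10.2). These and the following proportions of neighbours were chosen after the values had been seen.

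miR-654-3p had the second highest ratio of these 21, with 54 counts or 12.0 CPM (8.99 to 15.6) in normoxia and 257 counts or 29.9 CPM (26.3 to 33.8) in hypoxia, a log2 ratio of 1.32 (0.89 to 1.77). Its hairpin lies between those of the miR-376 family. miR-376a-3p, which starts 151 bases before it, had 103 counts or 22.8 CPM (18.6 to 27.7) in normoxia and 166 counts or 19.3 CPM (16.5 to 22.5) in hypoxia, a ratio of 0.85 (0.66 to 1.09). miR-376b, which starts 228 bases after it, had the same 103 counts in normoxia and 141 counts or 16.4 CPM (13.8 to 19.3) in hypoxia, a ratio of 0.72 (0.55 to 0.94). Neighbours on the same strand thus stood in different proportions in the libraries. There were 0.524 counts of miR-654-3p for each of miR-376b in normoxia and 1.82 in hypoxia, a difference of 3.48 times (2.32 to 5.23). Against miR-376a-3p, whose sequence matches hairpins at 2 loci of the cluster, the difference was 2.95 times (1.98 to 4.42).

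The 3p arms of the miR-376 family are alike in sequence. miR-376c, the most abundant member of the cluster, had 400 counts or 88.6 CPM (80.1 to 97.7) in normoxia and 842 counts or 97.9 CPM (91.4 to 104.7) in hypoxia, a ratio of 1.11 (0.98 to 1.25) that its interval does not separate from 1. The 3 arms summed to 134.2 and 133.6 CPM, a ratio of 1.00 (0.90 to 1.10). The other 59 members summed to 345.7 and 476.7 CPM, a ratio of 1.38 (1.30 to 1.46). This split was made after the ratios had been seen, so the contrast between its parts is descriptive only. The pair miR-376a-3p and miR-376b, which share the seed UCAUAGA, went from 206 to 307 counts, a log2 ratio of -0.35 (-0.61 to -0.09) after scaling. The mature miR-376a-3p matches hairpins at 2 loci of the cluster, so its counts belong to no single hairpin. From the opposite arm, miR-376a-5p had 52 and 113 counts, a log2 ratio of 0.19 (-0.30 to 0.69).

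Near the distal end of the cluster lie miR-409-3p and miR-410, both higher in hypoxia. miR-410 had 85 counts or 18.8 CPM (15.0 to 23.3) in normoxia and 289 counts or 33.6 CPM (29.8 to 37.7) in hypoxia, a ratio of 1.79 (1.40 to 2.30). miR-409-3p had 72 counts or 15.9 CPM (12.5 to 20.1) in normoxia and 234 counts or 27.2 CPM (23.8 to 30.9) in hypoxia, a ratio of 1.71 (1.30 to 2.25). miR-369-3p, which lies between them, had 34 and 77 counts and a ratio of 1.19 (0.78 to 1.84). The proportion of miR-410 to miR-369-3p differed by 1.50 times with an interval of 0.91 to 2.46, so a difference between these neighbours was not detectable at this depth. At the proximal end of the same stretch, miR-299-5p had 66 counts or 14.6 CPM (11.3 to 18.6) in normoxia and 223 counts or 25.9 CPM (22.6 to 29.6) in hypoxia, a ratio of 1.77 (1.34 to 2.37). Nearby miR-379-5p, the first member of the stretch, was at 14.8 and 20.0 CPM, a ratio of 1.35 (1.01 to 1.81).

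Of the listed members whose hairpins lie opposite RTL1, miR-127-3p had the most counts. It had 152 counts or 33.7 CPM (28.5 to 39.5) in normoxia and 463 counts or 53.8 CPM (49.0 to 59.0) in hypoxia, a ratio of 1.60 (1.33 to 1.93). From the same stretch but outside RTL1, miR-337-5p had 109 counts or 24.1 CPM (19.8 to 29.1) in normoxia and 215 counts or 25.0 CPM (21.8 to 28.6) in hypoxia, a ratio of 1.04 (0.82 to 1.32). The proportion of miR-127-3p to miR-337-5p differed by 1.54 times (1.14 to 2.09) between the libraries. In the stretch from miR-493 to miR-136, miR-136-3p, miR-431-5p, miR-432-5p, miR-433 and miR-665 had between 3 and 15 counts in each library and allow no direction to be read.

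Several abundant members had ratios close to 1. miR-154-3p had 151 counts or 33.4 CPM (28.3 to 39.2) in normoxia and 299 counts or 34.8 CPM (30.9 to 38.9) in hypoxia, a ratio of 1.04 (0.85 to 1.27). miR-134, a miRNA studied for its role in dendritic spines of neurons, had 73 counts or 16.2 CPM (12.7 to 20.3) in normoxia and 146 counts or 17.0 CPM (14.3 to 20.0) in hypoxia, a ratio of 1.05 (0.79 to 1.41). miR-889 had 47 counts or 10.4 CPM (7.65 to 13.8) in normoxia and 94 counts or 10.9 CPM (8.83 to 13.4) in hypoxia, the same ratio with a wider interval, 0.73 to 1.52. Their direction is not fixed by these data, as the log2 ratios of miR-154-3p, miR-134, miR-889 and miR-337-5p lay below 0 with TMM scaling and with library totals taken without the most abundant miRNAs, and that of miR-376c with the latter.

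The 41 members under the filter had at most 88 counts in a library. They summed to 85.1 CPM in normoxia and 104.0 CPM in hypoxia, a ratio of 1.22 (1.08 to 1.38), close to the 1.28 (1.21 to 1.36) of the 21 above it. For 5 of them (12.2%) the interval of the log2 ratio lay above 0, where this held for 5.76% of the 521 mature miRNAs under the filter. They were miR-323b-3p with 3 and 25 counts (0.42 to 4.50), miR-655 with 5 and 26 (0.04 to 3.19), miR-409-5p with 11 and 46 (0.16 to 2.23), miR-337-3p with 26 and 88 (0.18 to 1.52) and miR-485-3p with 24 and 76 (0.05 to 1.46). miR-380-3p, with 5 counts in normoxia and 1 in hypoxia, was the only one whose interval lay below 0 (-8.82 to -0.09), 2.44% of the 41 where 4.41% of the 521 did. These were picked by their intervals from the members listed.

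The stretches of the locus had ratios with overlapping intervals. The only listed member on the side of MEG3, miR-770-5p, had 2 and 8 counts. The 11 members from miR-493 to miR-136 summed to 386 counts or 85.5 CPM in normoxia and 977 counts or 113.6 CPM in hypoxia. Their ratio was 1.33 (1.18 to 1.50). They include those of the 4 RefSeq hairpins found opposite RTL1. They also include miR-432-5p, which lies between miR-127-3p and miR-136-3p and was matched to no hairpin. The 50 members from miR-379 to miR-656 summed to 1779 counts or 394.0 CPM and 4264 counts or 495.8 CPM, a ratio of 1.26 (1.19 to 1.33). No miRNA of the miR-370 stretch between these groups was listed. By arm, 22 members annotated as 5p had a ratio of 1.26 (1.14 to 1.39) and 34 annotated as 3p a ratio of 1.26 (1.18 to 1.33).

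**Figure D3:**
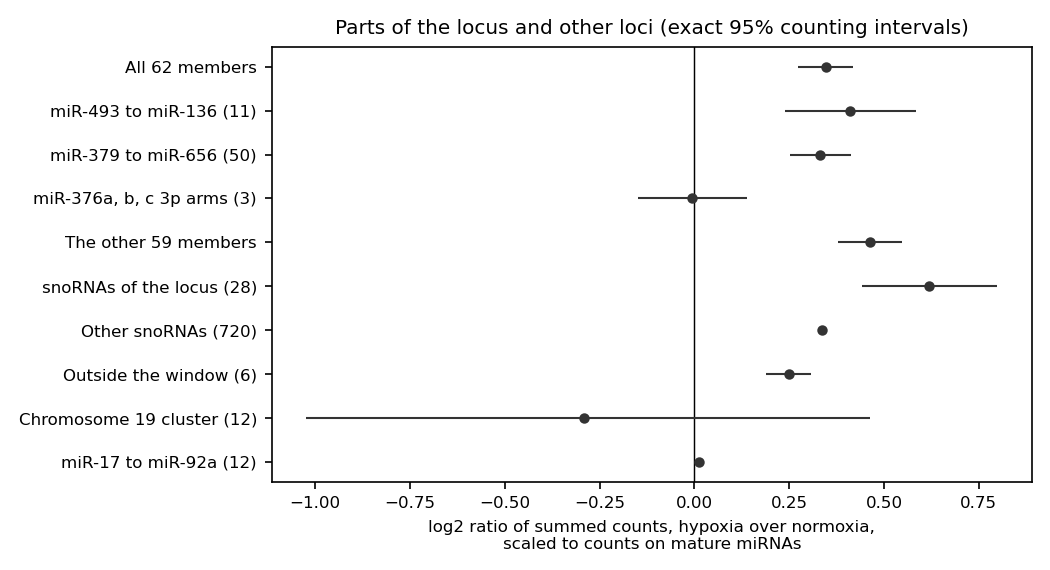
The log2 ratio of summed counts, hypoxia over normoxia, for stretches and families of the locus and for other loci, with the number of features in parentheses and exact 95% counting intervals, all scaled to counts on mature miRNAs. The miR-376 3p arms, set apart after the ratios had been seen, lie at 0 while the other 59 members lie at 0.46. The interval of the chromosome 19 cluster spans 0.

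The balance of 5p and 3p arms is a proportion within a library that does not depend on the scaling. Both arms were listed for 15 hairpins, of which 12 had at least 20 counts over both arms in each library. The 3p arm was the major one in both libraries for 7 of them (MIR127, MIR154, MIR369, MIR409, MIR411, MIR485 and MIR654), and the 5p arm for 4 (MIR299, MIR337, MIR379 and MIR493). For MIR382 the arms were equal in normoxia, with 21 counts each, and the 5p arm made up 62.5% (52.5% to 71.8%) in hypoxia. The most one-sided hairpin was MIR299, where the 5p arm gave 66 of 66 counts in normoxia and 223 of 226 in hypoxia. For MIR337 the 5p arm gave 80.7% (73.1% to 87.0%) in normoxia and 71.0% (65.5% to 76.0%) in hypoxia. The proportion of its 3p to its 5p arm differed by 1.72 times (1.03 to 2.94), while the intervals of the shares overlapped in all 12 hairpins. For MIR127 the minor arm miR-127-5p had 16 and 42 counts (3.54 and 4.88 CPM), a ratio of 1.38 (0.76 to 2.63). For MIR154 the minor arm miR-154-5p had 52 and 118 counts (11.5 and 13.7 CPM), a ratio of 1.19 (0.85 to 1.68). Neither interval separates the ratio from 1. For MIR654, whose 3p arm was among the highest ratios above 8 CPM, the 5p arm had 5 and 10 counts (1.11 and 1.16 CPM), a ratio of 1.05 (0.33 to 3.91), and its share was 8.47% (2.81% to 18.7%) and 3.75% (1.81% to 6.78%).

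**Figure D4:**
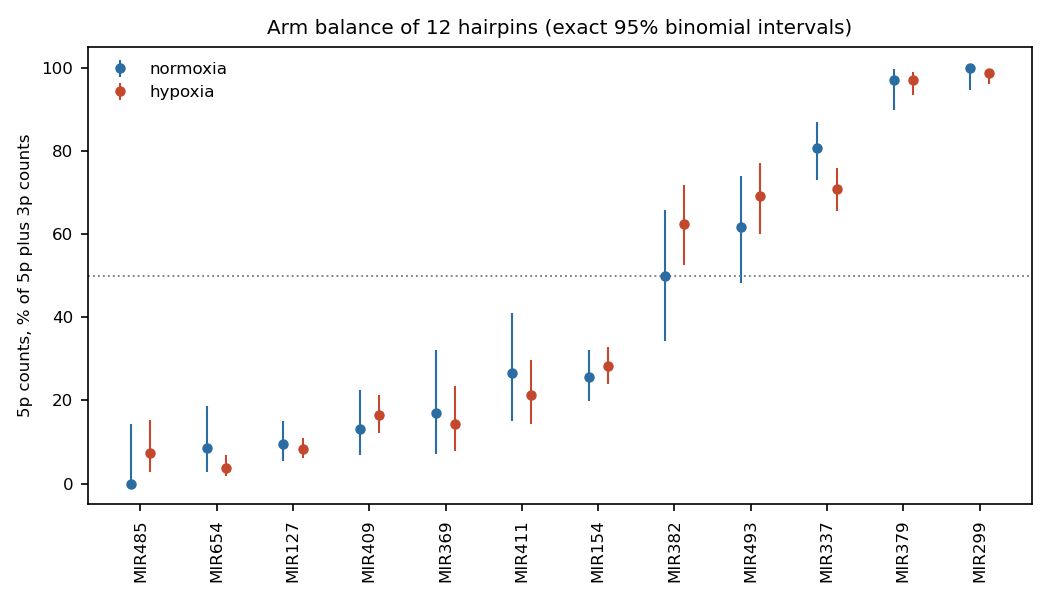
Share of 5p counts among the 5p and 3p counts of 12 hairpins with at least 20 counts in each library, ordered by their mean share, with exact 95% binomial intervals. The intervals of normoxia and hypoxia overlap for every hairpin, and the dotted line marks equal arms.

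Other loci were set beside the cluster. The placental miRNA cluster on chromosome 19, which is imprinted on the other parental chromosome, had 12 members listed with 27 counts in normoxia and 42 in hypoxia, a ratio of 0.82 (0.49 to 1.38). In normoxia it summed to 5.98 CPM, where the 14q32 cluster summed to 480.0 CPM. The miR-17 to miR-92a cluster on chromosome 13, an oncogenic and ubiquitous cluster, took 3.38% and 3.41% of mature counts in its 12 members, a ratio of 1.01 (1.00 to 1.01). This sum joins members that differed in direction, such as miR-19b-3p (log2 ratio 0.41) and miR-20a-5p (-0.55). The median log2 ratio of its 8 members above 8 CPM was -0.14. On chromosome 14 outside the window, 6 mature miRNAs (miR-151b, both arms of miR-342 and miR-345, and miR-1247-5p) summed to 721.6 and 857.3 CPM. Their ratio was 1.19 (1.14 to 1.24), with an interval that overlapped that of the 14q32 cluster. They lie between 25.7 kb (miR-345-3p) and 427 kb (miR-1247-5p) from the window. Whether any of them shares the imprinting of the region was not tested. Among them, miR-345-5p was lower in hypoxia, at 127 and 112 CPM, and miR-151b higher, at 275 and 364 CPM.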

How the data were processed

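For every small RNA feature the authors deposited unnormalized counts, with coordinates on hg19 per the labels. The methods of the study describe counting of small RNA reads against miRBase sequences without naming these libraries, so their aligner is left unnamed. The table held 6449337 counts in normoxia and 13115226 in hypoxia over 5475 features. No feature in it has under 3 counts over both libraries.

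From these counts, CPM and ratios were computed on the mature miRNA totals without a prior count. Intervals are exact Clopper-Pearson for levels and shares and exact conditional binomial for ratios (Python 3.11.15, scipy 1.17.1). No count test was run and no p-value is given, since each condition has 1 library. Size factors came from edgeR 4.0.16 and DESeq2 1.42.0 in R 4.3.3. The interval and threshold code was tested on simulated data. Members were matched to RefSeq by sequence. A match required a RefSeq mature sequence of chromosome 14 inside the listed sequence, with at most 2 further bases. Under this rule the listed sequence was 2 bases longer in 57 of 58. Counts, levels and ratios with intervals are given for the 10 most abundant members and for the 5 highest and 5 lowest ratios above 8 CPM with ties, and counts and the interval of the ratio for the opposite arms of their hairpins, where both libraries had counts. The members and lists were chosen with earlier results of these data known. Alternatives were other scalings, priors, filters, thresholds, denominators, thinning of the deeper library, and leaving out members.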

Additional observations from a re-analysis of the deposited data

Results flagged for a closer look

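The summed snoRNA fragments and the summed hairpin features of the same locus were above the limit of 3 counts that a count of 0 allows. Fragments of 28 snoRNA features of the region, 7 named SNORD112 or SNORD113 and 18 named SNORD114, received 345 counts in normoxia and 1009 counts in hypoxia. Scaled to mature miRNA counts this was a log2 ratio of 0.62 (counting interval 0.44 to 0.80), and 0.52 (0.35 to 0.70) when scaled to all counts in the table. The other 720 snoRNAs listed had log2 ratios of 0.34 (0.33 to 0.34) and 0.24 (0.24 to 0.25) on these scales. The hairpin features of the locus, 15 in number, received 45 counts in normoxia and 125 in hypoxia. Their log2 ratio was 0.54 (0.04 to 1.07) scaled to mature miRNA counts and 0.45 (-0.05 to 0.98) scaled to all counts. There was no control library for these features, and the cause of the differences was not tested.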

How the results depend on the processing

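No paired analysis was possible because normoxia and hypoxia were each sequenced once, which also meant that no library could be left out. With all counts in the table as the denominator the cluster took 0.0336% in normoxia and 0.0400% in hypoxia, and with the 10 leading miRNAs of either library (11 in all) taken out of the denominator 0.310% and 0.344%. Without its most abundant member it took 0.0391% and 0.0512%, and without its 3 most abundant 0.0324% and 0.0424%, by construction.

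The log2 ratio of the cluster, 0.35, was 0.23 with TMM factors, 0.28 with DESeq2 size factors, 0.15 with totals without those 11 miRNAs and, added after seeing the data, 0.25 with all counts in the table, 0.46 without the miR-376 3p arms and 0.29 without miR-543 and miR-654-3p. The miR-493 to miR-136 stretch was at 0.21 with totals without those 11 miRNAs, and the miR-379 to miR-656 stretch at 0.22 with TMM factors and 0.14 with those totals. These scalings moved the log2 ratio of every miRNA alike, by -0.11 (TMM), -0.07 (DESeq2) and -0.20 (totals), so that the median over 338 miRNAs went from 0.08 to -0.04, 0.01 and -0.12. Over the 338 miRNAs, 13 were above 0.9 and 11 below -0.9 in the scaling reported, 9 and 15 with TMM, 11 and 15 with DESeq2 and 6 and 19 with those totals, while 2 members were higher and 0 lower in each. With the deeper library thinned, 3 members were higher, miR-410 (0.98) being added, and 15 of the 338 miRNAs.

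With a mean of at least 20 CPM 1 member was higher, as 9 members were then considered (9 of 263 over all miRNAs, 3.42%). Without a filter, and with a prior count of 2, 10 of 62 members were higher and 1 lower, where 113 and 64 of 859 miRNAs were. With a minimum of 100 counts for arms, 3 hairpins were left, 2 of them with a major 3p arm. The ratios of the 13 members given full values were recomputed in 78 alternatives, and the sign changed in 14 of these, all for miR-134, miR-154-3p, miR-337-5p, miR-376c or miR-889, whose intervals hold a log2 ratio of 0. What caused the shifts was not tested beyond the change of scale or of the members considered. Depth limits the 41 members under 8 CPM, most of which allow no direction to be read.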

Other observations

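Among the snoRNAs of the locus, the single SNORD112 had 33 counts in normoxia and 84 in hypoxia. SNORD112 and SNORD113 together had 91 and 271 counts, a log2 ratio of 0.64 (counting interval 0.30 to 1.00) scaled to mature miRNA counts, and 18 features of SNORD114 had 238 and 700 counts, 0.63 (0.41 to 0.84). The intervals of both groups overlapped each other and that of the miRNA cluster (0.27 to 0.42), for SNORD114 only at its edge, whereas that of all 28 snoRNA features of the locus (0.44 to 0.80) lay above it. The only long noncoding RNA feature listed at the locus had 2 and 3 counts.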
